A study of Mus musculus with 6 samples.

Results

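The 38 genes described here encode lysosomal hydrolases, their activators, proteins of the lysosomal membrane and the transcription factors Tfeb, Tfe3 and Mitf. They were chosen by gene name, without cathepsins and subunits of the proton pump, and all 38 were found among the 27240 genes of the deposited table. Poly(A) RNA was sequenced from 6 samples of mouse primary peritoneal macrophages, 3 labelled knockout (KO) and 3 labelled wild type (WT). All 6 were treated with oxLDL, an oxidised lipoprotein that macrophages take up and deliver to lysosomes, so the values compare genotypes within oxLDL-treated cells. DCLK1, a doublecortin-like kinase, is named in the title of the series, and no library without oxLDL was analysed here. The extraction protocol in the labels speaks of an adipose type, at odds with the stated source, and adipocyte markers were not examined. The labels used here give no strain, age, dose, duration, deleted exon or way of collecting the cells. Whether replicates are separate mice or separate cultures is not said, and p-values therefore reflect the spread among these 6 samples alone, part of which may be technical.

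Lysosomes are acidic organelles in which hydrolases take apart lipids, glycans and proteins delivered by endocytosis, phagocytosis and autophagy. In a macrophage that has taken up lipoprotein, acid lipase frees cholesterol from its esters and the NPC proteins pass it out of the organelle. The MiT/TFE transcription factors are known to switch on many lysosomal genes together through promoter elements built around the E-box CACGTG, named CLEAR elements.

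To show which of the 38 genes carry that core, RefSeq promoter windows (GRCm38.p6, 250 bases before to 50 after a start site) were searched for CACGTG, which reads the same on both strands. Windows were found for 35 of the genes, and 10 of them (28.6%) held the core, against 8.09% of the 27025 genes with a window. All 10 held it within the longer TCACGTG or its reverse complement, present in 4.29% of all genes. Cln3 alone of the 35 held the longer CLEAR palindrome, which has GT before the core and AC after it and was found in 0.37% of all genes. These letter matches are a description of the promoters and do not show that a factor bound there. The stretches below run from 12 bases before the first core to 12 bases after the last, 5′ to 3′ on the gene's strand, with each CACGTG in capitals.
Lamp1 (chr8:13159088-13159163, plus strand): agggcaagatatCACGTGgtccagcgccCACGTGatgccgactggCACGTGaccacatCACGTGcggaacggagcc
Mcoln1 (chr8:3500436-3500491, plus strand): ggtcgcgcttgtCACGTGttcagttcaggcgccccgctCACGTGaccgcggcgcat
Cln3 (chr7:126583340-126583397, minus strand): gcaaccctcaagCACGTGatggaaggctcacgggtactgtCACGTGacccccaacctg
Gla (chrX:134601182-134601244, minus strand): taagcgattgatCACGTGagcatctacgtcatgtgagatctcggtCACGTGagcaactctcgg
Lgmn (chr12:102439124-102439153, minus strand): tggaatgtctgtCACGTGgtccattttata
Naglu (chr11:101070009-101070038, plus strand): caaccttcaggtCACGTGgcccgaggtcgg
Glb1 (chr9:114401018-114401047, plus strand): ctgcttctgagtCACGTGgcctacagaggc
Gaa (chr11:119267811-119267840, plus strand): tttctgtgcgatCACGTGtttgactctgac
Sgsh (chr11:119355522-119355551, minus strand): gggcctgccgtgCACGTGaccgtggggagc
Arsa (chr15:89477423-89477452, minus strand): tcaactcagtgtCACGTGttgtctgctcct
Lamp1 had 4 cores within its stretch of 76 bases, Cln3, Mcoln1 and Gla had 2 each, and the other 6 genes had 1. The Gla stretch lies within the deposited bounds of its neighbour Hnrnph2 (chromosome X, 134601179 to 134607060, plus strand). Gla as deposited begins at 134601125 on the minus strand, closer to its 2 cores than the RefSeq start used here.

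**Figure D1:**
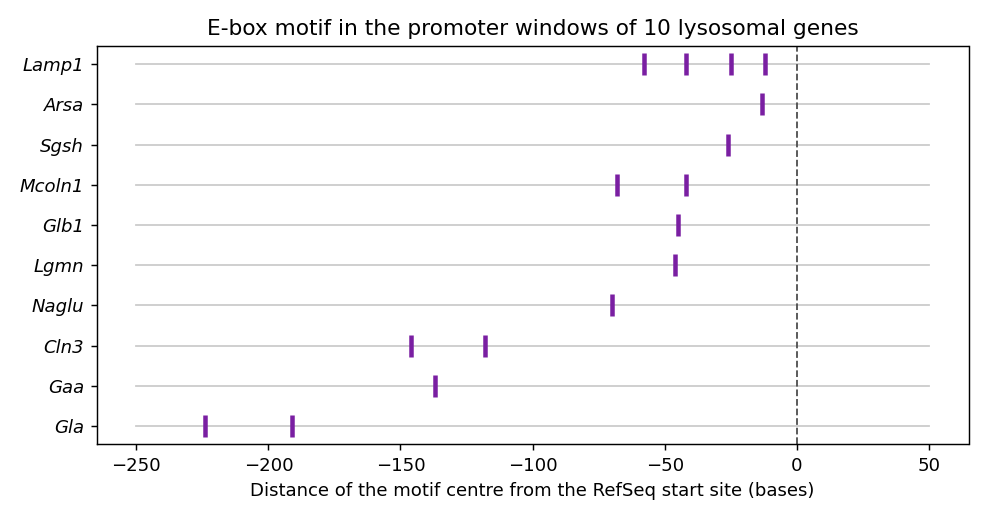
Position of each CACGTG core (purple tick) in the promoter windows of 10 lysosomal genes, in bases from the RefSeq start site (dashed line); grey lines span the window from 250 bases before to 50 after it. The 4 cores of Lamp1 lie between -58 and -12, whereas those of Gla lie at -224 and -191.

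The depth of the libraries was even. Total counts lay between 72559141 and 74172804 in KO libraries and between 68053008 and 79090732 in WT libraries. Levels per library are given in CPM, TMM-scaled counts by library depth, and 3 counts in a library are worth 0.0379 to 0.0441 CPM. Dclk1, the gene of the series title, had 415, 431 and 377 counts in KO libraries and 494, 498 and 584 counts in WT libraries. Its KO level was 77.6% of the WT level (edgeR adjusted p = 0.332), so it checks the labels only weakly. Macrophage markers were present, with Cd68 at 1994 CPM, Adgre1 at 1037 CPM and Csf1r at 993 CPM over the 6 libraries. The summed level of 8 macrophage markers was 12687 to 12829 CPM in KO and 20425 to 21679 CPM in WT libraries. Lyz2, the lysozyme gene, was the 1 marker of them past the threshold, at 7923 to 8004 CPM in KO and 15678 to 16980.0 CPM in WT libraries. The other 7 summed to 4727 to 4825 CPM in KO and 4588 to 4747 CPM in WT libraries, but they were not all level. Itgam was at 599, 417 and 525 CPM in KO libraries and 415, 232 and 332 CPM in WT libraries (edgeR adjusted p = 0.344). Fcgr1 and Mrc1 were also higher in KO on average, and Adgre1, Cd68, Csf1r and Mertk were lower. Summed markers of other cells were low. Fibroblast and mesothelial markers (8 genes) summed to 71.2 to 84.2 CPM in KO and 93.1 to 98.3 CPM in WT libraries, and T and NK cell markers (8 genes) to 9.78 to 11.3 CPM in KO and 15.1 to 16.5 CPM in WT libraries. Mast cell markers (6 genes) summed to 3.02 to 4.25 CPM in KO and 4.98 to 6.10 CPM in WT libraries, and dendritic cell markers (6 genes) to 11.6 to 14.2 CPM in KO and 14.3 to 16.9 CPM in WT libraries. B cell markers (6 genes) summed to 56.1 to 68.3 CPM in KO and 65.4 to 80.9 CPM in WT libraries. Neutrophil markers (6 genes, Ly6g at 0 in every library) summed to 102 to 104 CPM in KO and 99.6 to 108 CPM in WT libraries. The part of these markers in the values below was not tested.

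The 38 genes took 4.27%, 4.26% and 4.35% of all counts in KO libraries and 4.18%, 4.33% and 4.21% in WT libraries, so the share overlapped between genotypes. Psap alone held 56.2% of the counts of these genes. Summed without Psap, the other 37 were at 18588, 18472 and 19508 CPM in KO libraries and 18331, 18850 and 18341 CPM in WT libraries. In bulk RNA, fewer cells of a type and less RNA per cell cannot be told apart, here and in every value that follows.

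Levels between genes were compared in FPKM, the deposited value scaled for gene length. Mean FPKM over the 6 libraries spanned 3.16 for Arsb to 7856 for Psap. Psap ranked 4 of the 27240 genes in the table, and Lamp1 (957 FPKM), Hexa (604 FPKM), Lgmn (338 FPKM) and Lipa (329 FPKM) followed it among the 38. Lgmn was at 356 ± 3.77 FPKM in KO and 321 ± 8.01 FPKM in WT libraries, and Lipa at 342 ± 3.99 FPKM in KO and 316 ± 5.63 FPKM in WT libraries (SD, n = 3 each). These neighbours in the order lay within 1 SD of each other in WT libraries and further apart than that in KO libraries. The lowest levels were those of the sulfatase and glycosidase genes Arsb, Sgsh (5.21 FPKM), Galc (7.50 FPKM) and Manba (7.59 FPKM), and Tfeb was at 7.95 FPKM. Even Arsb lay above 54.0% of the 16239 tested genes in mean FPKM.

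**Figure D2:**
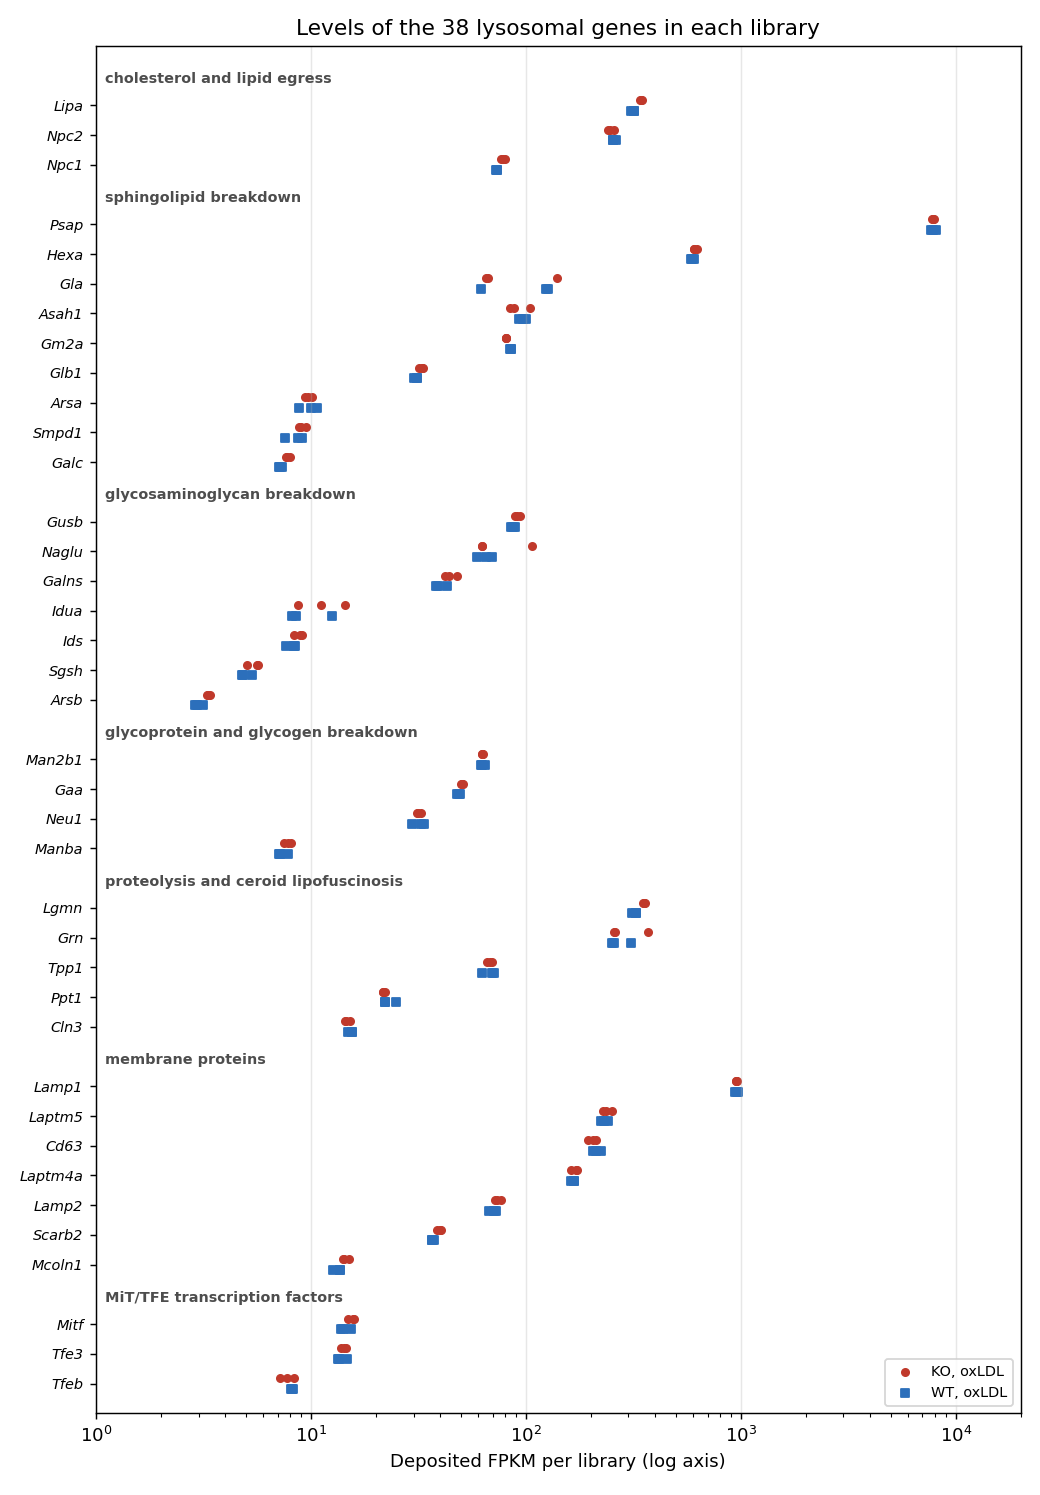
Deposited FPKM (log axis) of the 38 lysosomal genes in each of 3 KO libraries (red circles) and 3 WT libraries (blue squares), both oxLDL-treated, grouped by role. Levels run from about 3.16 (Arsb) to 7856 (Psap), and the spread between genes far exceeds that between genotypes; Gla, Naglu, Idua and Grn are spread widely within a genotype.

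None of the 38 genes passed the test for a genotype difference. EdgeR's quasi-likelihood test with Benjamini-Hochberg adjustment over all 16239 tested genes called 0 of the 38 at 0.05, where 0.0677% of all tested genes were called (11 genes, 0.0246% higher and 0.0431% lower in KO), and adjusted p ran from 0.139 to 0.976. All 38 passed the filter on low counts in both genotypes. At an unadjusted p under 0.05 there were 6 (Lgmn, Lipa, Npc1, Galc and Scarb2 with KO above WT, Gm2a with KO below WT), or 15.8%, where 10.4% of all tested genes had such a p, 4.73% with KO higher and 5.71% with KO lower. Among the 6248 genes within the same range of mean CPM the share was 15.9%. DESeq2 on the same counts called 1 of the 38, Lgmn (adjusted p = 0.0386), and 3.77% of the genes for which it gave an adjusted p. Limma on log2(FPKM + 1) and on log2(FPKM + 0.1) called 0. A p that misses the threshold does not show that the genotypes were equal, and the intervals below give the sizes of difference that the data allow.

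The fitted differences were small. The median log2 fold change (KO over WT, here and below) was 0.05 over the 38 genes and -0.0019 over all tested genes. It was 0.0082 over the genes within the same range of mean CPM. Of the 38, 24 (63.2%) were above 0, against 49.5% of all tested genes and 53.2% of those within that range. Fitted folds ran from 0.856 for Gla to 1.19 for Naglu, and all 38 lay within 1.25-fold in either direction, as did 74.7% of all tested genes and 94.9% of those within the same range of mean CPM. The 95% interval, taken gene by gene, lay wholly within 1.25-fold for 34 of the 38; the exceptions were Gla, Naglu, Idua and Grn. It did so for 34.8% of all tested genes and 76.2% of those within the same range of mean CPM. The 3 KO and 3 WT values did not overlap for 10 of the 38 (26.3%), where 17.6% of all tested genes, and 23.6% of those within the same range of mean CPM, did not overlap. Of these 10, KO was above WT for 8 (Lipa, Npc1, Glb1, Galc, Arsb, Lgmn, Scarb2 and Mcoln1). Of all tested genes 8.68% showed this, and 12.5% of those within the same range of mean CPM. KO was below WT for 2 (Gm2a and Ppt1), where 8.89% of all tested genes and 11.1% of those within that range were. With KO replicate 2 or WT replicate 2 left out, 17 of the 38 (44.7%) did not overlap. With 1 library fewer the share over all tested genes was also higher, at 26.7% and 28.0%. The share within the same range of mean CPM was not taken for these fits.

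**Figure D3:**
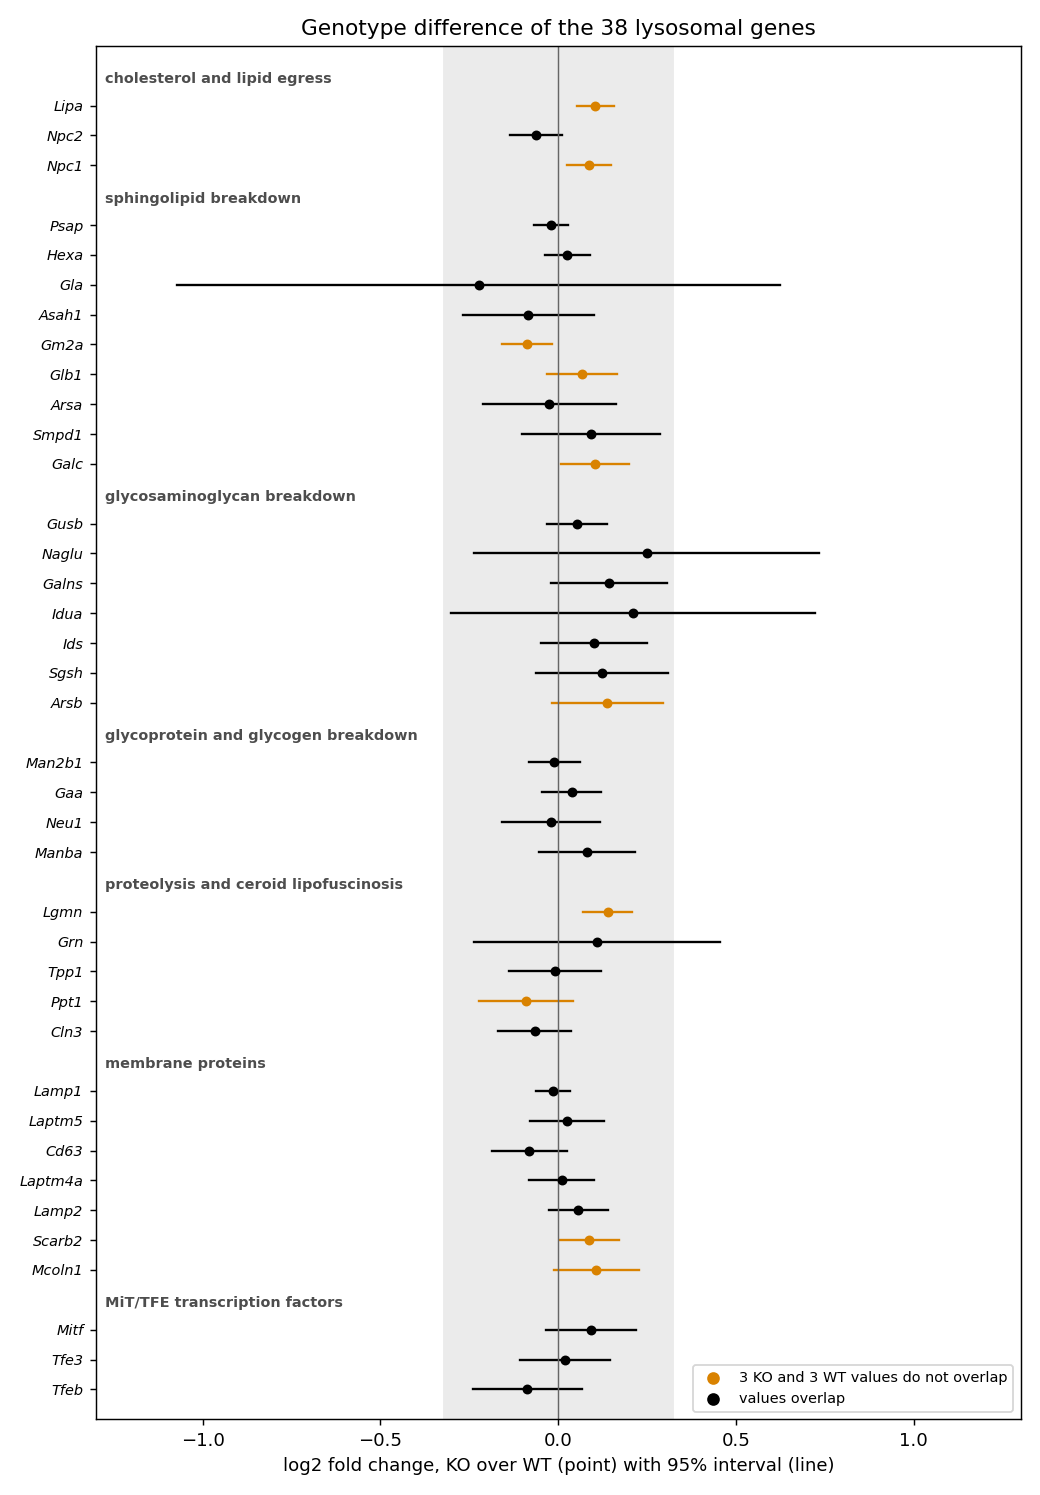
Fitted log2 fold change (KO over WT, points) with 95% intervals (lines) of the 38 lysosomal genes by role; orange marks the 10 genes whose 3 KO and 3 WT values did not overlap, and the grey band spans 1.25-fold in either direction. Points lie between -0.22 (Gla) and 0.25 (Naglu), and the 4 intervals that leave the band are those of Gla, Naglu, Idua and Grn.

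**Figure D4:**
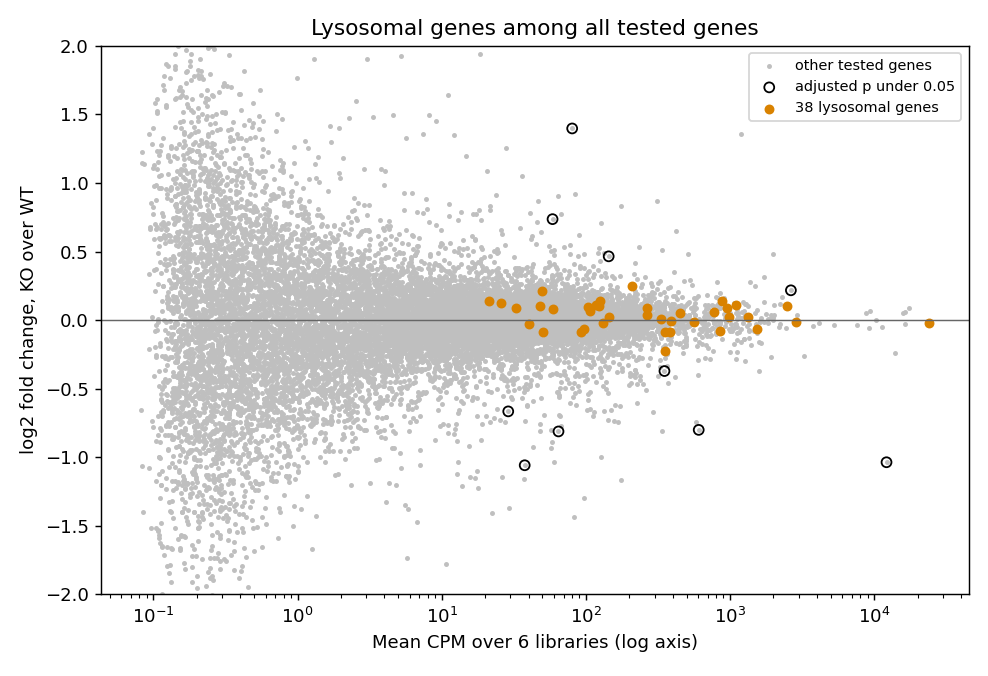
Fitted log2 fold change (KO over WT) against mean CPM over the 6 libraries (log axis) for all 16239 tested genes (grey), with the 38 lysosomal genes in orange and the 11 genes at an adjusted p under 0.05 ringed where they fall in the plotted range; 124 genes beyond the plotted range are not drawn. No lysosomal gene is ringed, and all lie near 0.

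Genes of cholesterol release and egress were among the members closest to the threshold. Lipa (chromosome 19, 34492318 to 34527474, minus strand, GRCm38 as deposited) encodes the acid lipase that hydrolyses cholesteryl esters. It was at 2544, 2569 and 2603 CPM in KO libraries and 2337, 2436 and 2407 CPM in WT libraries, with every KO value above every WT value. Its log2 fold change came to 0.10 (SE 0.022, 95% interval 0.05 to 0.16), with an edgeR adjusted p of 0.144. Npc1, which encodes the membrane protein that exports cholesterol, was at 965, 985 and 1003 CPM in KO libraries and 923, 938 and 921 CPM in WT libraries, again without overlap (log2 fold change 0.09, adjusted p = 0.297). Npc2, which encodes the soluble carrier that hands cholesterol to it, had the opposite sign, at 1555, 1487 and 1453 CPM in KO libraries and 1599, 1558 and 1537 CPM in WT libraries. Its groups overlapped, since KO replicate 1 lay above WT replicate 3 (log2 fold change -0.06, adjusted p = 0.547). In FPKM, Npc2 was at 249 in KO and 257 in WT libraries and Npc1 at 78.5 in KO and 73.3 in WT libraries, so the soluble carrier had the higher level per length in both genotypes. Npc1 shares 511 of its 11317 exonic bases with Rmc1 on the opposite strand, and whether reads were assigned by strand is not stated.

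Sphingolipid breakdown was the largest role, with 9 genes, a median log2 fold change of -0.02 and 4 of 9 above 0. Psap, which encodes the precursor of the saposins that present sphingolipids to their hydrolases, was at 23745, 24076 and 23640.0 CPM in KO libraries and 23553, 24977 and 24007 CPM in WT libraries. The groups overlapped, and the interval of its log2 fold change, -0.07 to 0.03, was among the narrowest (-0.02, SE 0.0205, adjusted p = 0.781). Gm2a, which encodes the activator protein for ganglioside degradation, was at 369.7, 370.1 and 368 CPM in KO libraries and 394, 395 and 388 CPM in WT libraries. Its KO values varied by 1.13 CPM (SD, n = 3) around 369 CPM, and all lay below the WT values (log2 fold change -0.09, SE 0.0299, 95% interval -0.16 to -0.02, adjusted p = 0.363). Hexa, which encodes the hexosaminidase subunit that works with that activator, was at 1344, 1334 and 1382 CPM in KO libraries and 1306.5, 1365 and 1319.7 CPM in WT libraries, and overlapped (adjusted p = 0.813).

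Galc, which encodes galactosylceramidase, was at 127, 128 and 131 CPM in KO libraries and 117, 121 and 122 CPM in WT libraries. All KO values were above all WT values (log2 fold change 0.10, 95% interval 0.01 to 0.20, adjusted p = 0.436). The β-galactosidase gene Glb1 was at 109.8, 106.2 and 111 CPM in KO libraries and 104, 105.8 and 102 CPM in WT libraries. The groups were separated only by the gap between KO replicate 2 and WT replicate 2 (log2 fold change 0.07, adjusted p = 0.650). Asah1 (acid ceramidase), Smpd1 (acid sphingomyelinase) and Arsa (the sulfatase of sulfatides) overlapped between genotypes, with log2 fold changes of -0.08, 0.09 and -0.02. Their levels per length differed, since Asah1 was at 94.4 FPKM and Smpd1 and Arsa at 8.77 and 9.76 FPKM over the 6 libraries. The counts of Arsa and Hexa are uncertain, because 15.8% and 10.6% of their 50-base sequences occur, on either strand, in other transcripts.

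Gla, which encodes α-galactosidase A, had uneven levels within each genotype. It was at 237, 242 and 502 CPM in KO libraries and 453, 466 and 226 CPM in WT libraries (chromosome X, 134588149 to 134601125, minus strand). Each genotype thus held libraries at 226 to 242 CPM and libraries at 453 to 502 CPM, with a highest-to-lowest ratio of 2.12 within KO libraries. That ratio was larger than for 97.5% of the 6418 tested genes with a mean of at least 20 CPM, whose median was 1.13. The neighbouring genes did not share the pattern, as Hnrnph2 lay between 173 and 184 CPM, Rpl36a between 45.5 and 49.1 CPM and Btk between 63.6 and 74.5 CPM over the 6 libraries. No exon of another gene overlaps Gla in GENCODE M21, and 0.903% of its 50-base sequences occur in other transcripts. Its log2 fold change of -0.22 had an interval of -1.07 to 0.62 (adjusted p = 0.889) and ran from -0.67 to -0.04 as single libraries were left out. The interval therefore allows a genotype difference of either sign for Gla.

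Naglu, Grn and Idua were also uneven within a genotype. KO replicate 3 had the highest value of all libraries for each of them and for Gla. Among WT libraries the highest replicate was not the same for all of these genes. What sets these libraries apart was not tested. Naglu, which encodes the glucosaminidase of heparan sulfate breakdown, was at 183.1, 183.4 and 316 CPM in KO libraries and 175, 194 and 206 CPM in WT libraries. KO replicate 3 stood alone, and without it the log2 fold change of Naglu was -0.06 in place of 0.25. Grn, which encodes progranulin, a secreted and lysosomal glycoprotein, was at 993, 1006 and 1429 CPM in KO libraries and 975, 1005 and 1197 CPM in WT libraries. The highest value of each genotype came from replicate 3, and without KO replicate 3 the log2 fold change of Grn was -0.08 in place of 0.11. Idua, which encodes α-iduronidase, was at 40.4, 52.0 and 66.9 CPM in KO libraries and 59.0, 40.5 and 38.2 CPM in WT libraries, a log2 fold change of 0.21 with an interval of -0.30 to 0.72. Its 3 KO values were spread out, and among WT libraries replicate 1 stood above the other two. Leaving out single libraries moved Idua between 0.0090 and 0.43. Within-group ratios over 1.4 were thus found for 4 of the 38 genes (10.5%), against 9.50% of the tested genes with a mean of at least 20 CPM.

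**Figure D5:**
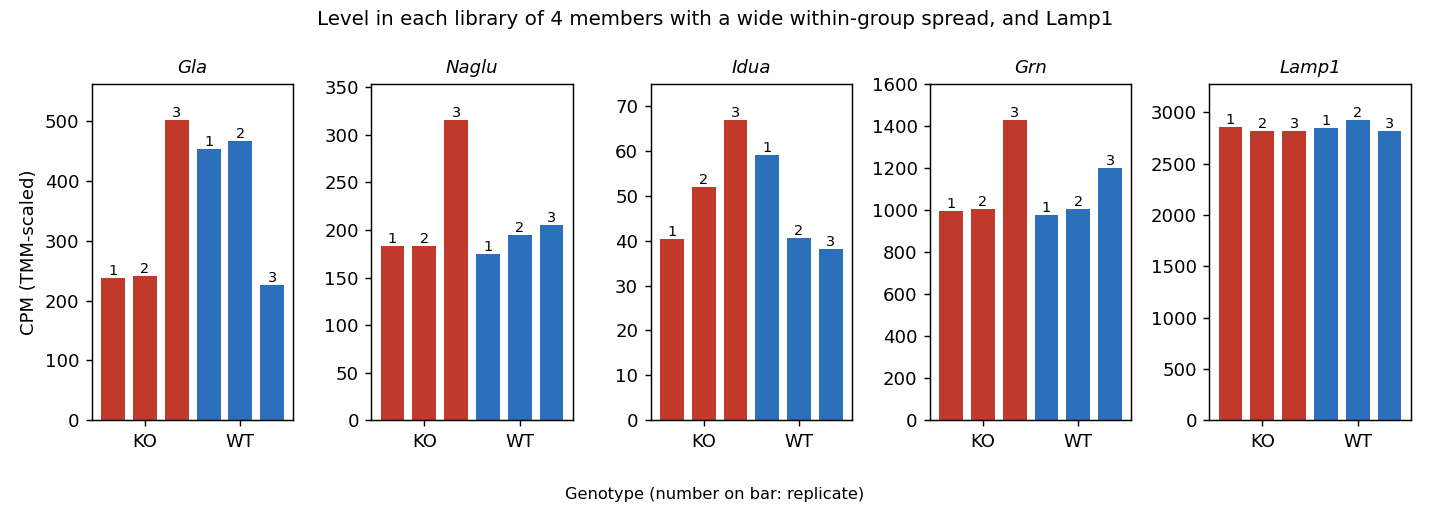
TMM-scaled CPM in each library (bars, replicate number above) of Gla, Naglu, Idua and Grn and of Lamp1 for comparison, KO in red and WT in blue, each panel with its own axis from 0. Gla has a low and a high level in both genotypes (226 to 502 CPM). Gla, Naglu, Idua and Grn are all highest in KO replicate 3, and Lamp1 stays between 2816 and 2929 CPM.

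All 7 genes of glycosaminoglycan breakdown had a log2 fold change above 0, with a median of 0.14, but none had an unadjusted p under 0.05, and the sign of Naglu rested on KO replicate 3. The other 6 stayed above 0 without any single library. Arsb, the sulfatase gene of dermatan sulfate breakdown, was at 22.0, 22.2 and 22.6 CPM in KO libraries and 21.2, 19.5 and 19.9 CPM in WT libraries, without overlap (log2 fold change 0.14, SE 0.0664, 95% interval -0.02 to 0.29, adjusted p = 0.536). The counts of Arsb are uncertain, since 38.5% of its 50-base sequences occur in Gm26527 or other transcripts. Gusb, the β-glucuronidase gene and the most abundant of this role at 89.2 FPKM, was at 457, 450.0 and 473 CPM in KO libraries and 432, 456 and 443 CPM in WT libraries. KO replicates 1 and 3 lay above every WT library and KO replicate 2 among them (log2 fold change 0.05, adjusted p = 0.684). Galns (the sulfatase of keratan sulfate), Ids (iduronate sulfatase) and Sgsh (sulfamidase) had log2 fold changes of 0.14, 0.10 and 0.12 and overlapped between genotypes. Sgsh shares 955 of its 4414 exonic bases with Card14 on the opposite strand.

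The 4 genes of glycoprotein and glycogen breakdown had a median log2 fold change of 0.01, and none separated the genotypes. Man2b1, the lysosomal α-mannosidase gene, was at 556, 559.4 and 559.4 CPM in KO libraries and 551, 579 and 558 CPM in WT libraries. The KO values lay within the range of the WT values (log2 fold change -0.01, 95% interval -0.08 to 0.06, adjusted p = 0.933). Gaa, the acid α-glucosidase gene of glycogen breakdown, was at 267 ± 3.06 CPM in KO and 259.9 ± 5.66 CPM in WT libraries (SD, n = 3 each), with overlap. Neu1, the sialidase gene, was at 131 ± 3.62 CPM in KO and 133 ± 9.07 CPM in WT libraries (SD, n = 3 each). Manba, the β-mannosidase gene, had the smallest unadjusted p of this role (0.203), at 62.7, 58.3 and 60.7 CPM in KO libraries and 55.2, 56.0 and 60.6 CPM in WT libraries.

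Among genes of lysosomal proteolysis and the ceroid lipofuscinoses, Lgmn had the smallest p of all 38. Lgmn (chromosome 12, 102394084 to 102439813, minus strand) encodes legumain, the asparaginyl endopeptidase. It was at 925, 907 and 917 CPM in KO libraries and 842, 848 and 807 CPM in WT libraries. The lowest KO value lay well above the highest WT value, and the difference of the means was larger than the spread within either group (916 ± 8.91 CPM in KO and 832 ± 22.4 CPM in WT libraries, SD, n = 3 each). KO over WT, this was 0.14 on the log2 scale (SE 0.0289, 95% interval 0.07 to 0.21), a fold of 1.10, with an unadjusted p of 0.0017 and an edgeR adjusted p of 0.139. An exact two-sided permutation test gave p = 0.1, the smallest p that 3 against 3 allows. Over the 12 alternative settings its adjusted p ran from 0.0386 (DESeq2) to 0.381, and its log2 fold change stayed between 0.12 and 0.15.

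Ppt1, which encodes the thioesterase that removes palmitate from proteins, was at 90.3, 88.2 and 88.3 CPM in KO libraries and 102, 91.5 and 90.6 CPM in WT libraries. The groups did not overlap in CPM, but KO replicate 1 and WT replicate 3 were nearly level (log2 fold change -0.09, 95% interval -0.22 to 0.04, adjusted p = 0.644). In deposited FPKM they did overlap, with KO replicate 1 at 22.18 and WT replicates 2 and 3 at 22.16 and 22.10. Ppt1 (chromosome 4, 122836242 to 122859078, plus strand) shares 129 of its 3674 exonic bases with Cap1 on the opposite strand. Cap1, which encodes an actin-regulating protein, was at 436, 448 and 442 CPM in KO libraries and 768, 785.5 and 756 CPM in WT libraries, and fell by 0.80 on the log2 scale (adjusted p = 6.3e-05). With strand use not stated, a share of Ppt1 counts that belongs to Cap1 cannot be told apart from Ppt1's own, and its part in the Ppt1 difference was not tested. Tpp1, the tripeptidyl peptidase gene, was at 389 ± 10.1 CPM in KO and 391 ± 28.1 CPM in WT libraries (SD, n = 3 each). Cln3, a membrane protein gene mutated in juvenile ceroid lipofuscinosis, was at 94.4 ± 2.53 CPM in KO and 98.8 ± 1.82 CPM in WT libraries (SD, n = 3 each). KO replicate 2 of Cln3 lay above WT replicate 2, so the groups overlapped (adjusted p = 0.664). Cln3 shares 442 exonic bases with Apobr on the opposite strand.

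Of the 7 membrane proteins, 5 had a log2 fold change above 0, with a median of 0.03. Lamp1 and Lamp2 encode the heavily glycosylated proteins that line the inner face of the lysosomal membrane. Lamp1 was at 2859, 2822.0 and 2822.4 CPM in KO libraries and 2848, 2929 and 2816 CPM in WT libraries, with overlap and an interval of -0.06 to 0.03 around a log2 fold change of -0.02 (adjusted p = 0.861). Lamp2 was at 774, 765 and 809 CPM in KO libraries and 773, 726 and 758 CPM in WT libraries (log2 fold change 0.06, adjusted p = 0.647). Per length, Lamp1 stood far above Lamp2, at 956 ± 7.64 against 73.9 ± 2.26 FPKM in KO libraries and 958 ± 15.4 against 70.5 ± 2.57 FPKM in WT libraries (SD, n = 3 each).

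Scarb2, which encodes the membrane receptor that carries glucocerebrosidase to lysosomes, was at 277, 268 and 280.2 CPM in KO libraries and 262, 259 and 256 CPM in WT libraries. Every KO value was above every WT value, and the interval of the log2 fold change, 0.0035 to 0.17, began just above 0 (0.09, adjusted p = 0.451). Mcoln1, which encodes the lysosomal calcium channel TRPML1, was at 119.6, 118.8 and 126 CPM in KO libraries and 115, 116.0 and 107 CPM in WT libraries, also without overlap (log2 fold change 0.11, 95% interval -0.01 to 0.23, adjusted p = 0.530). Laptm5, a lysosomal protein gene of leukocytes, Laptm4a and the tetraspanin gene Cd63 overlapped between genotypes, with log2 fold changes of 0.03, 0.0094 and -0.08. Cd63 had the smallest unadjusted p of those 3 (0.114), at 864, 798 and 837 CPM in KO libraries and 871, 929.8 and 844 CPM in WT libraries. Of the 50-base sequences of Cd63, 11.1% also occur in Cd63-ps or other transcripts, so its counts are uncertain.

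The MiT/TFE factors did not separate the genotypes at the RNA level, and RNA does not show where the proteins were. Tfeb was at 48.6, 52.4 and 45.1 CPM in KO libraries and 52.0, 51.5 and 51.7 CPM in WT libraries. The WT libraries lay within 1 CPM of each other while KO replicate 2 lay above and KO replicates 1 and 3 below them (log2 fold change -0.09, 95% interval -0.24 to 0.07, adjusted p = 0.711). Tfe3 was at 145.5, 149.9 and 142 CPM in KO libraries and 137, 154 and 140.3 CPM in WT libraries (log2 fold change 0.02, adjusted p = 0.936). Mitf was at 109, 103 and 107 CPM in KO libraries and 106, 95.8 and 97.8 CPM in WT libraries, a log2 fold change of 0.09 with overlap through WT replicate 1 (adjusted p = 0.627). Per length, Mitf (15.0 FPKM) and Tfe3 (14.0 FPKM) were close, and both lay above Tfeb (7.95 FPKM) in every library.

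The 10 genes with CACGTG in a promoter window had a median log2 fold change of 0.05, from -0.22 (Gla) to 0.25 (Naglu), with 6 above 0. The 25 genes with a window and no CACGTG had a median of 0.03, with 16 above 0. The groups did not overlap for 3 of the 10 (Lgmn, Glb1 and Mcoln1) and for 6 of the 25, where 17.6% of all tested genes and 23.6% of those within the same range of mean CPM did not overlap. Mean FPKM overlapped widely between these genes, at 5.21 to 957 for the 10 and 3.16 to 7856 for the 25. Whether the number of cores in a window goes with the genotype difference was not tested.

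Genes that deliver hydrolases to lysosomes and control the MiT/TFE factors also gave no call. Of 9 genes of mannose 6-phosphate and sortilin sorting, 0 passed, and 3 had an unadjusted p under 0.05, which 10.4% of all tested genes had. The sorting adaptor gene Gga2 was at 88.7, 97.6 and 94.1 CPM in KO libraries and 118, 108 and 125 CPM in WT libraries, without overlap (log2 fold change -0.33, adjusted p = 0.131). The sortilin gene Sort1 went the other way, at 356, 374 and 386 CPM in KO libraries and 302, 329.9 and 337 CPM in WT libraries (log2 fold change 0.20, adjusted p = 0.223). Igf2r, the large mannose 6-phosphate receptor gene and the most abundant of them in CPM, was at 711, 712 and 760.0 CPM in KO libraries and 717, 677 and 715 CPM in WT libraries (adjusted p = 0.731).

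Of 16 genes of MiT/TFE control at the lysosome, 0 passed and 2 had an unadjusted p under 0.05, against the same 10.4% and 15.9%. They belong to nutrient signalling through mTORC1 and folliculin, apart from the calcineurin subunit genes Ppp3cb and Ppp3r1. Fnip2, which encodes a folliculin partner, was at 847, 849 and 874 CPM in KO libraries and 785, 766 and 817 CPM in WT libraries, without overlap (log2 fold change 0.12, adjusted p = 0.251). Of 25 further lysosomal hydrolase and membrane protein genes, 0 passed and 3 had an unadjusted p under 0.05 (10.4% of all tested genes), with a median log2 fold change of 0.02. The smallest p was that of Mcoln2, a channel gene related to Mcoln1, at 482, 467 and 454 CPM in KO libraries and 511, 519 and 512 CPM in WT libraries (log2 fold change -0.14, adjusted p = 0.198). Its sign was opposite to that of Mcoln1, and neither passed. Cd68, the most abundant of these in CPM, was at 1958, 2039 and 1982 CPM in KO libraries and 1936, 2081 and 1964 CPM in WT libraries (adjusted p = 0.998).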

How the data were processed

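Poly(A) RNA of 6 oxLDL-treated samples was sequenced as paired-end libraries, per the labels' protocols. The submitters' processing notes name HISAT2 2.0, and no counter, annotation, strand setting or build is given in the sources used here. Counts and FPKM per gene and library are what the deposited table holds, per the file headers. The deposited counts are whole numbers. Count per deposited FPKM, after scaling by library total, varied 1.005 to 1.016 times between libraries over 8550 genes with at least 500 counts in each library, so the authors' FPKM carries the same reads over a fixed length. Coordinates of 34 of the 38 genes equal those in GENCODE M21 (GRCm38), which was taken as the build. A further 12 per-sample columns of counts and FPKM matched no sample and were not used.

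Genotype groups came from the labels. Genes were filtered by filterByExpr, scaled by TMM and tested two-sided with edgeR 4.0.16 (R 4.3.3) by a quasi-likelihood fit on genotype alone, adjusted by Benjamini-Hochberg over 16239 genes. CPM values use TMM-scaled libraries; SDs are over the 3 of a genotype and intervals are at the 95% level. Between replicates, chi-square over its degrees of freedom was 36.7 to 42.8, so none was counted as a duplicate. Intervals and floors cover counting error and library spread only. The fit was tested on simulated data, and that test is not used here as evidence that differences within 1.25-fold would be called. Alternatives were RLE factors, no filter, DESeq2 1.42.0, limma 3.58.1 on log2(FPKM + 1) or log2(FPKM + 0.1) for genes of at least 1 FPKM in at least 3 libraries, the replicate number as a block, and each library left out. Shared sequence was sought as 50-base runs on either strand of GENCODE M21 transcripts. Promoter sequences are RefSeq's.

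The 38 genes and the gene lists were chosen with earlier results of these data known. Values in every library are given for genes past the threshold, for the member of highest FPKM and of smallest p in each role, for those without overlap, for Ppt1, Tfeb, Tfe3 and Mitf, and for the gene of smallest p and the most abundant of each further list. Gla, Idua, Naglu, Grn, Lamp2, Npc2, Hexa and Cd63 in every library, and means for Gaa, Neu1, Tpp1 and Cln3, were added after their values were seen, as were Lyz2, Itgam, Sort1 and Gga3.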

Additional observations from a re-analysis of the deposited data

How the results depend on the processing

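In the 12 alternatives 0 of the 38 genes passed, except under DESeq2, where 1 (Lgmn) did. The number of all genes called was 11 and moved to 457 with DESeq2, 7 without the low-count filter and 3 with the replicate number as a block, and ranged from 7 to 35 as single libraries were left out (35 without KO replicate 1, 24 without WT replicate 2 and 7 without WT replicate 1). The number of lysosomal genes called without 1 library was 0 in each fit, and the number without overlap ranged from 11 to 17 in those fits and was 10 or 11 in the others. The 11 without overlap in FPKM did not include Ppt1, and did include Gusb and Gaa, which overlapped in CPM. The median log2 fold change of the 38 stayed between 0.019 and 0.061. Same-numbered libraries correlated at 0.040, 0.050 and 0.015 in their deviations from the group means. These correlations were low, but each library correlated best with its own number, so they do not settle whether the numbers mark pairs. The block changed no call of the 38. Signs near 0 changed under limma for Man2b1 (0.00076 and 0.00078) and Tpp1 (0.0052 and 0.0053). As single libraries were left out, log2 fold changes that crossed 0 ran from -0.0094 to 0.038 for Laptm4a, -0.068 to 0.028 for Tpp1, -0.012 to 0.070 for Tfe3, -0.064 to 0.38 for Naglu, -0.099 to 0.037 for Arsa, -0.013 to 0.059 for Laptm5, -0.084 to 0.21 for Grn, -0.041 to 0.0023 for Psap, -0.028 to 0.0094 for Man2b1, -0.074 to 0.021 for Neu1 and -0.027 to 0.0011 for Lamp1. The other 27 kept 1 direction in all 12. All 38 genes had a mean above 20 CPM.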
